A study of Homo sapiens with 4 samples.

Results

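The 10 genes described here encode the core and accessory subunits of Polycomb repressive complex 2 (PRC2): EZH1, EZH2, EED, SUZ12, JARID2, C17orf96, MTF2, PHF1, PHF19 and AEBP2. They were taken by symbol from the 26364 genes in the deposited count tables, in which EPOP is listed under its older symbol C17orf96. All 10 passed the filter on low counts and were among the 16040 genes tested. The study sequenced mRNA of NTERA2 cells, a human embryonal carcinoma line with the properties of pluripotent cells, all labelled as clone CRL-1973. The labels give a group called BEND3 sh60 (replicates 1 and 2) and a group called BEND3 LacZ (replicates 1 and 3). Here sh60 is taken as a short hairpin RNA against BEND3, a chromatin-bound repressor, and LacZ as its control, which the labels do not state outright. They name no vector, harvest time or second hairpin, so sh60 is a single hairpin in a single line. Whether replicates came from separate cultures is not stated either, so the p-values below reflect how far these particular samples spread, a spread that may be technical.

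PRC2 is the enzyme that methylates histone H3 at H3K27, a mark of silenced developmental genes. EZH2 or its paralog EZH1 carries the catalytic SET domain, and works only when bound to EED, which reads the mark, and SUZ12, the scaffold. Accessory subunits bind SUZ12 in exclusive sets: MTF2, PHF1, PHF19 and C17orf96 belong to the form called PRC2.1, and JARID2 and AEBP2 to PRC2.2. In pluripotent cells the complex covers the promoters of many lineage regulators.

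Library totals ran from 30338285 to 44788461 counts. Levels are given in CPM, a count divided by its TMM-scaled library size, where 1 count equals 0.0221 to 0.0333 CPM depending on the library. BEND3, the gene named in the labels, was at 72.7% of its LacZ level in the sh60 libraries (95% confidence interval of the ratio 0.630 to 0.839). Without LacZ replicate 3 its fall no longer passed (edgeR adjusted p = 0.153). The first principal component of log2 CPM held 76.0% of the variance, with sh60 replicates 1 and 2 at 32.7 and 31.7, and LacZ replicates 1 and 3 at -25.4 and -38.9. The labels also call the cells a lung carcinoma line. All 12 embryonal carcinoma markers measured at least 1 CPM in every library. They summed to 6147 to 6391 CPM in the sh60 libraries against 6631 to 6803 CPM in the LacZ libraries (5 of 12 lower and 1 higher by the test), and the part of this in the results below was not tested. The 8 lung epithelial markers summed to at most 1.17 CPM in any sh60 library and 0.902 CPM in any LacZ library, with SFTPB and SCGB1A1 at 0 counts throughout. A sum over 8 fibroblast markers, led by COL1A1, was 911 and 1074 CPM in the sh60 libraries against 424 and 521 CPM in the LacZ libraries. Of these markers 4 of 8 were higher and 1 lower by the test, and their part in the results below was not tested. Among all genes tested 13.0% were called lower and 15.8% higher. Blood cell markers (7) summed to at most 1.15 CPM in any sh60 library and 0.932 CPM in any LacZ library, with PTPRC and HBB at 0 counts.

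C17orf96, EED and EZH2 fell in the sh60 libraries, and the other 7 subunits did not pass the test. C17orf96 fell to 41.7% of its LacZ level, EED to 75.3% and EZH2 to 83.7%. EZH1 measured 1.23-fold higher without passing. The 3 of 10 members called, all lower, compare with 28.8% of all tested genes called in either direction and 13.0% called lower (edgeR's quasi-likelihood test, Benjamini-Hochberg adjusted p below 0.05 over 16040 genes). The share of members called was thus close to that of all genes. Without LacZ replicate 1 or without LacZ replicate 3 the count of lower members was 1, C17orf96, and without sh60 replicate 1 it was 5. By edgeR 0 members rose, against 15.8% of all tested genes called higher; 1 member, EZH1, was higher at an unadjusted p below 0.05, and DESeq2 and limma-voom also called 0 higher. The libraries of the groups did not overlap for 5 members, 4 of them lower and 1 higher in sh60, against 64.4% of all tested genes (32.3% with both sh60 libraries lower, 32.1% with both higher). The median log2 fold change was -0.079 over the members and -0.0042 over all genes tested.

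**Figure D1:**
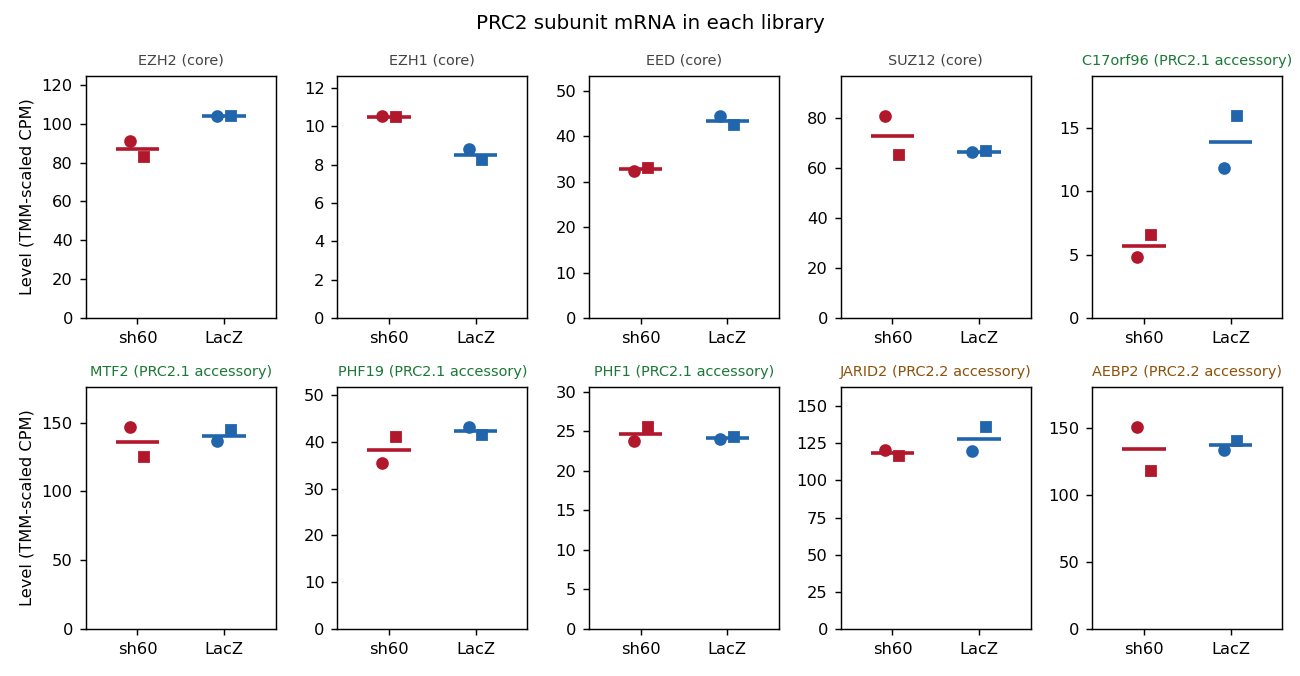
Level of each PRC2 subunit (TMM-scaled CPM, linear axis from 0) in sh60 replicates 1 (circle) and 2 (square), red, and LacZ replicates 1 (circle) and 3 (square), blue; bars are group means. C17orf96, EED and EZH2 lie lower in both sh60 libraries, EZH1 lies higher, and the sh60 libraries of SUZ12, MTF2 and AEBP2 lie on either side of the LacZ values.

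Among the core subunits in the list of 10, EZH2 and EED fell, and EZH1 and SUZ12 did not pass. The histone-binding subunits RBBP4 and RBBP7 are outside that list and are described further below. EZH2 (chromosome 7, 148504464 to 148581441, minus strand, hg19), the main methyltransferase of dividing cells, measured 91.2 and 82.6 CPM in sh60 replicates 1 and 2, against 103.8 and 103.7 CPM in LacZ replicates 1 and 3. Both sh60 libraries were lower, and the LacZ libraries were nearly equal. The log2 fold change was -0.26 (SE 0.089, 95% confidence interval -0.44 to -0.07, edgeR adjusted p = 0.0371). EZH2 was not called when library totals alone were used for scaling (log2 fold change -0.23, edgeR adjusted p = 0.0593). Nor was it called without LacZ replicate 1 (-0.25, adjusted p = 0.325) or without LacZ replicate 3 (-0.26, adjusted p = 0.347), fits in which a lone LacZ library is assumed to vary like the sh60 pair.

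EED (chromosome 11, 85955426 to 85989852, plus strand), the WD40-repeat subunit that docks on trimethylated H3K27 and stimulates the enzyme, measured 32.4 and 33.0 CPM in sh60 replicates 1 and 2, against 44.4 and 42.4 CPM in LacZ replicates 1 and 3. The replicates lay close together in each group and the groups did not overlap. The log2 fold change was -0.41 (SE 0.098, 95% confidence interval -0.61 to -0.20, edgeR adjusted p = 0.00408). The call was lost without LacZ replicate 1 (-0.37, adjusted p = 0.117) and without LacZ replicate 3 (-0.44, adjusted p = 0.0577).

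SUZ12 (chromosome 17, 30264044 to 30328057, plus strand), which holds the core together and carries the accessory subunits, measured 80.8 and 65.1 CPM in sh60 replicates 1 and 2, against 66.3 and 66.9 CPM in LacZ replicates 1 and 3. One sh60 library lay above and the other below both LacZ libraries. The log2 fold change was 0.13 (95% confidence interval -0.09 to 0.35, edgeR adjusted p = 0.385). It was 0.28 and called without sh60 replicate 2 (adjusted p = 0.00571), and -0.033 without sh60 replicate 1, so the sh60 library used decides its value. SUZ12 has a partial pseudogene copy, SUZ12P1 (chromosome 17, 29036626 to 29097068), whose reads cannot always be told from its own, so both levels are uncertain. SUZ12P1 measured 6.37 and 5.88 CPM in the sh60 libraries, against 6.34 and 6.55 CPM in the LacZ libraries, and did not pass (edgeR adjusted p = 0.754).

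EZH1 (chromosome 17, 40852293 to 40897071, minus strand), the weaker paralog found mainly in resting and differentiated cells, measured 10.5 and 10.5 CPM in sh60 replicates 1 and 2, against 8.79 and 8.25 CPM in LacZ replicates 1 and 3. Both sh60 libraries were above both LacZ libraries. The log2 fold change of 0.30 (SE 0.13, 95% confidence interval 0.02 to 0.58) did not pass after adjustment (unadjusted p = 0.0362, edgeR adjusted p = 0.100) or under any of the 14 alternatives, whose adjusted p ran from 0.0508 to 0.437. EZH1 and EZH2 thus measured on opposite sides of their LacZ levels. Per kilobase of exon, EZH1 made up 7.0% and 7.65% of the EZH1 and EZH2 mRNA in sh60 replicates 1 and 2, against 5.24% and 4.94% in LacZ replicates 1 and 3. The mean difference was 2.23 percentage points, and the groups did not overlap. An exact two-sided permutation test over 2 against 2 libraries gave p = 0.333, the smallest it can give (0.533 after Benjamini-Hochberg adjustment over 8 such quantities), so this design cannot reach 0.05.

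**Figure D2:**
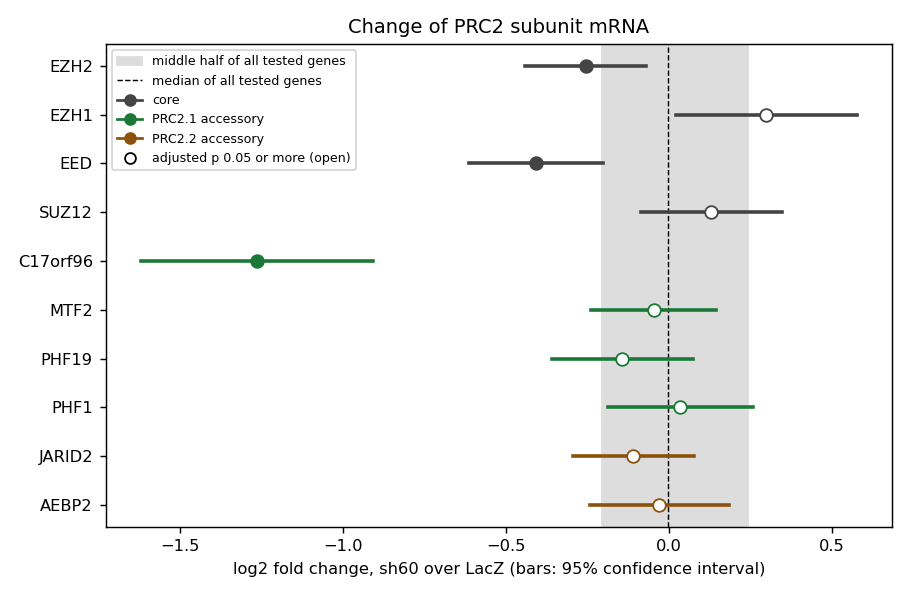
Log2 fold change (sh60 over LacZ) of each PRC2 subunit with its 95% confidence interval, by role; filled points passed the edgeR test at an adjusted p of 0.05. The shaded band spans the interquartile range of all tested genes (-0.21 to 0.24); EZH2 (-0.26), EED (-0.41) and C17orf96 (-1.26) lie below it and EZH1 (0.30) above it.

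The DNA at the starts of the 4 core genes is shown as a description, and its part in the calls was not tested. The motifs searched for were chosen after the data were seen. RefSeq promoter windows were in GRCh38.p14, another build than that of the counts, and ran from 250 bases before to 50 after the start. C17orf96, the member with the largest fall, had no window and could not be searched. Windows were found for the other 9 of 10 members, 12 windows in all. They were searched on both strands for the E2F motif (TTTCGCGC or TTTGGCGC), the NFY box (CCAAT) and the CHR element (TTTGAA or TTCGAA), and no matches overlapped in the windows described. The stretches below run 5′ to 3′ on the gene's strand from 100 bases before the start to the tenth base from it, with matches in capitals. They lie at chr7:148884282-148884391 (minus strand) for EZH2, chr11:86244653-86244762 (plus strand) for EED, chr17:31936907-31937016 (plus strand) for SUZ12 and chr17:42745031-42745140 (minus strand) for EZH1.
EZH2: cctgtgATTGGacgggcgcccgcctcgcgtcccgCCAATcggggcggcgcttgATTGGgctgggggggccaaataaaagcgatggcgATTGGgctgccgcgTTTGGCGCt
EED: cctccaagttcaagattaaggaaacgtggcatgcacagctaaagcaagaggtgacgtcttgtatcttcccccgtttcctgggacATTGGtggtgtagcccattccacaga
SUZ12: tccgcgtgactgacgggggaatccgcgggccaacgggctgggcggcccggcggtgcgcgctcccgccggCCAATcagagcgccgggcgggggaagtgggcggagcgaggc
EZH1: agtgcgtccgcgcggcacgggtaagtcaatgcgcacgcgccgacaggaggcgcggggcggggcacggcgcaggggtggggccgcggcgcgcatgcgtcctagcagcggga

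The first of 2 EZH2 windows held 4 NFY boxes, ATTGG at 94, 47 and 13 bases before the start and CCAAT at 66 bases before it, and 1 E2F motif, TTTGGCGC, that begins 1 base after the start base. An E2F match was present in 1.15% of the 35116 promoter windows in the table, an NFY box in 34.6%, and 4 or more NFY boxes in 0.991%. The second EZH2 window had no match to any of the motifs. The EED window held 1 NFY box, 16 bases before the start, and no E2F match. The SUZ12 window held 1 NFY box, 31 bases before the start, and 1 CHR element, TTCAAA on the gene's strand, 173 bases before it and outside the stretch shown. A CHR element was present in 16.4% of all windows. The EZH1 window had no match to any of these letters. An NFY box was thus present in both core genes that fell, EZH2 and EED, and also in SUZ12, which did not pass. Of the accessory genes, JARID2 and PHF19 held NFY boxes (1 in 1 of 2 windows for JARID2, and 1 in each of 2 for PHF19). The windows of MTF2, PHF1 and AEBP2 had no match, and C17orf96 had no window. These matches describe letters and were not tested for binding.

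Among PRC2.1 subunits, C17orf96 fell and the 3 Polycomb-like proteins did not pass. C17orf96 (chromosome 17, 36827959 to 36831187, minus strand), known as EPOP, links PRC2 with elongin BC and is high in pluripotent cells. It had 164 and 297 counts in sh60 replicates 1 and 2, against 497 and 478 counts in LacZ replicates 1 and 3, the smallest of which is also the lowest count of any member. These were 4.82 and 6.56 CPM in the sh60 libraries, against 11.8 and 15.9 CPM in the LacZ libraries. Every sh60 value was below every LacZ value, although the libraries of a group differed more for this gene than for any other member, with LacZ replicate 3 at 0.43 above LacZ replicate 1 on the log2 scale and sh60 replicate 2 at 0.45 above sh60 replicate 1. The log2 fold change was -1.26 (SE 0.17, 95% confidence interval -1.62 to -0.91, edgeR adjusted p = 2.00e-05). A smaller (more negative) log2 fold change was found in 1.43% of tested genes. A fall this large, of at least 1 on the log2 scale, was called for 2.25% of all tested genes. C17orf96 was called lower in each of the 14 alternatives, at log2 fold changes of -1.51 to -1.04.

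The nearest tested genes beside C17orf96 were MLLT6, 30.7 kb away on the other strand, and SRCIN1, 65.8 kb away. MLLT6 measured 19.3 and 20.6 CPM in sh60 replicates 1 and 2, against 32.1 and 41.6 CPM in LacZ replicates 1 and 3, and was also called lower (log2 fold change -0.88, edgeR adjusted p = 2.87e-05). SRCIN1 measured 2.50 and 2.34 CPM in the sh60 libraries, against 3.06 and 3.46 CPM in the LacZ libraries, and did not pass (-0.43, adjusted p = 0.114). Over all 10 members, the 20 nearest tested genes, 1 on each side, had 3 called lower, 2 called higher and 15 not passing, against 13.0% lower and 15.8% higher among all genes tested, and were taken by position alone. Next to EED and EZH2 none of the 4 neighbours (PICALM, C11orf73, CUL1 and PDIA4) was called by edgeR.

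MTF2 (chromosome 1, 93544792 to 93604638, plus strand), a Polycomb-like protein that brings PRC2 to unmethylated CpG islands, measured 146.9 and 124.8 CPM in sh60 replicates 1 and 2, against 136.4 and 144.3 CPM in LacZ replicates 1 and 3. The groups overlapped, and the log2 fold change was -0.048 (95% confidence interval -0.24 to 0.14, edgeR adjusted p = 0.743). It was called lower only without sh60 replicate 1 (-0.17, adjusted p = 0.0417). PHF19 (chromosome 9, 123617929 to 123657174, minus strand), a related protein that binds methylated H3K36, measured 35.5 and 41.1 CPM in the sh60 libraries, against 43.2 and 41.5 CPM in the LacZ libraries. The sh60 values were lower, by a small margin for replicate 2, and the log2 fold change of -0.14 did not pass (95% confidence interval -0.36 to 0.07, edgeR adjusted p = 0.327). It was called lower without sh60 replicate 2 (-0.25, adjusted p = 0.0350).

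PHF1 (chromosome 6, 33378773 to 33384230, plus strand), the third Polycomb-like protein, measured 23.8 and 25.5 CPM in sh60 replicates 1 and 2, against 24.0 and 24.2 CPM in LacZ replicates 1 and 3. The groups overlapped and the log2 fold change was 0.035 (95% confidence interval -0.19 to 0.26, edgeR adjusted p = 0.846). PHF1 is also annotated on an alternative haplotype sequence of chromosome 6, and reads that fit both copies may have been left out of its count, so its level is uncertain.

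Neither PRC2.2 subunit passed. JARID2 (chromosome 6, 15246206 to 15522273, plus strand), a Jumonji-family protein without demethylase activity that recruits PRC2 and activates it, measured 120.4 and 116.6 CPM in sh60 replicates 1 and 2, against 119.8 and 136.0 CPM in LacZ replicates 1 and 3. The groups overlapped, and LacZ replicate 3 stood above the other libraries. The log2 fold change was -0.11 (95% confidence interval -0.30 to 0.08, edgeR adjusted p = 0.391). AEBP2 (chromosome 12, 19592608 to 19675173, plus strand), a zinc finger protein that stabilises the complex, measured 150.8 and 117.7 CPM in the sh60 libraries, against 133.5 and 140.4 CPM in the LacZ libraries. The sh60 values lay on both sides of the LacZ values, and the log2 fold change was -0.030 (95% confidence interval -0.24 to 0.18, edgeR adjusted p = 0.865). It was -0.22 and called without sh60 replicate 1 (adjusted p = 0.00912), and 0.14 without sh60 replicate 2. The intervals of the 7 subunits that did not pass leave room for changes of up to 0.58 on the log2 scale, in EZH1.

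The sh60 libraries differed from each other for several subunits more than the LacZ libraries did. On the log2 scale sh60 replicate 2 minus sh60 replicate 1 was -0.36 for AEBP2, -0.31 for SUZ12 and -0.23 for MTF2. For the same genes LacZ replicate 3 minus LacZ replicate 1 was 0.072, 0.013 and 0.081. For EZH2, called lower at a log2 fold change of -0.26, the sh60 difference was -0.14 and the LacZ difference -0.0018. For C17orf96, PHF19 and PHF1 the sh60 difference had the other sign, at 0.45, 0.21 and 0.10. EED, EZH1 and JARID2 differed little between the sh60 libraries, at 0.027, -0.0056 and -0.046.

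**Figure D3:**
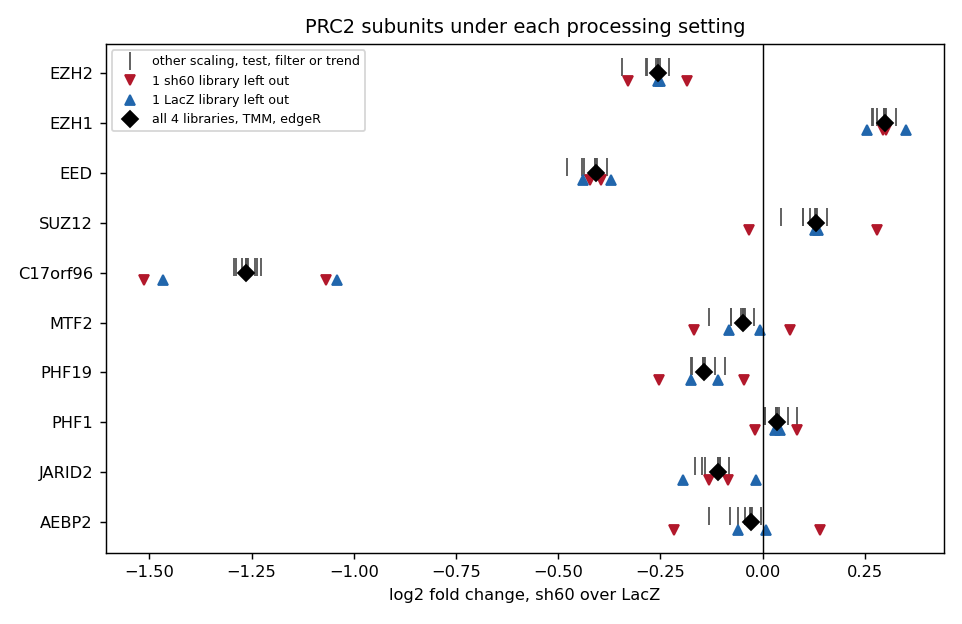
Log2 fold change (sh60 over LacZ) of each PRC2 subunit with all 4 libraries (diamond), under another scaling, test, filter or trend correction (bars), and with 1 sh60 (red) or 1 LacZ (blue) library left out. C17orf96, EED, EZH2, JARID2 and PHF19 stay below 0 and EZH1 above it in every setting shown. SUZ12, MTF2, PHF1 and AEBP2 cross 0 when a library is left out.

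Levels per kilobase of annotated exon placed the subunits across an 18.7-fold range in sh60 and an 18.6-fold range in LacZ. In the sh60 libraries the order of mean levels was MTF2 (32.9 CPM per kb), EZH2 (28.6), AEBP2 (23.1), JARID2 (19.1), SUZ12 (16.3), EED (12.9), PHF1 (10.7), PHF19 (8.02), EZH1 (2.26) and C17orf96 (1.76). In the LacZ libraries it was EZH2 (34.2 CPM per kb), MTF2 (34.0), AEBP2 (23.6), JARID2 (20.6), EED (17.1), SUZ12 (14.9), PHF1 (10.5), PHF19 (8.87), C17orf96 (4.29) and EZH1 (1.83). Neighbours in the sh60 order did not overlap over its 2 libraries, although MTF2 and EZH2 came close (lowest MTF2 value 30.2, highest EZH2 value 30.1). In the LacZ order EZH2 and MTF2 overlapped and no other neighbours did. EZH2 and MTF2, EED and SUZ12, and C17orf96 and EZH1 changed places between the groups. These levels use the length of all annotated exons together, so a gene expressed mainly as a short transcript is placed too low, and with 2 libraries a group the order of close neighbours is a description.

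**Figure D4:**
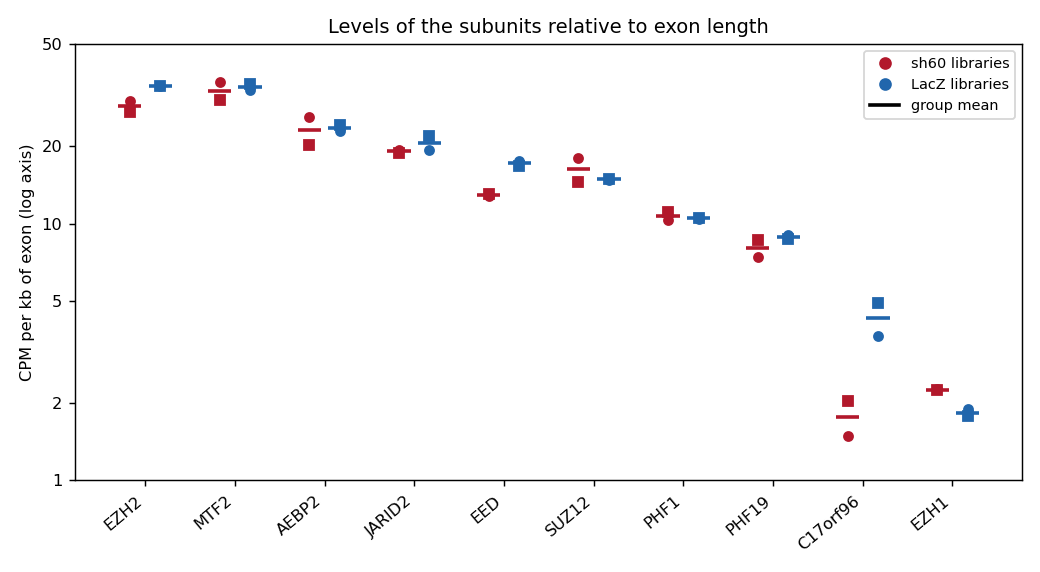
Level of each subunit per kilobase of exon (CPM per kb, log axis) in the sh60 libraries (red, left) and the LacZ libraries (blue, right), with replicate 1 as a circle, the other replicate as a square and group means as bars, ordered by the LacZ mean. C17orf96 (1.76 CPM per kb in sh60, 4.29 in LacZ) lies below EZH1 (2.26 in sh60, 1.83 in LacZ) in sh60 and above it in LacZ.

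Summed over the 4 core genes EZH1, EZH2, EED and SUZ12, the level was 63.2 and 57.1 CPM per kb in sh60 replicates 1 and 2. In LacZ replicates 1 and 3 it was 68.4 and 67.6 CPM per kb. RBBP4 and RBBP7 were not part of this sum. The groups did not overlap (exact two-sided permutation p = 0.333, the smallest possible). Summed over the 6 accessory genes it was 100.2 and 91.1 CPM per kb in the sh60 libraries, against 98.5 and 105.2 CPM per kb in the LacZ libraries, which overlapped (exact permutation p = 0.667). C17orf96 supplied 1.49% and 2.23% of the accessory sum in sh60, against 3.71% and 4.68% in LacZ (exact permutation p = 0.333). The ratio of PRC2.2 to PRC2.1 accessory mRNA was 0.827 and 0.751 in sh60, against 0.753 and 0.780 in LacZ. It overlapped between the groups (exact permutation p = 1). MTF2 made up 66.7% and 60.5% of the mRNA of the 3 Polycomb-like genes in sh60, against 62.9% and 64.5% in LacZ, which overlapped as well. These are amounts of mRNA, and fewer cells of a type and less RNA per cell cannot be told apart in bulk samples.

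The genes whose pattern over the 4 libraries was most like that of EZH2 were THSD4, USP7, SIPA1L1, NDC80 and AMOTL1. Those were the 5 with the smallest root mean square difference of mean-centred log2 CPM, 0.0074 to 0.011, among 9844 other genes with a mean of at least 10 CPM. The gene at rank 50 was at 0.021, so many genes lay about as close over so few libraries. THSD4, the closest, measured 26.3 and 24.0 CPM in sh60, against 29.7 and 30.0 CPM in LacZ. SIPA1L1 measured 53.4 and 47.7 CPM in sh60, against 60.7 and 60.5 CPM in LacZ. AMOTL1 measured 195.5 and 173.4 CPM in sh60, against 220.2 and 220.3 CPM in LacZ. USP7, a ubiquitin-specific protease that also binds PRC1, measured 310.0 and 279.0 CPM in sh60, against 351.4 and 355.3 CPM in LacZ. NDC80, a kinetochore protein, measured 52.1 and 46.8 CPM in sh60, against 59.2 and 59.9 CPM in LacZ. A function shared by these genes and EZH2 was not tested.

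Of 7 other genes that work with PRC2, 6 were tested, with 1 lower, 1 higher and 4 not passing by edgeR (median log2 fold change 0.16, against -0.0042 over all genes tested). The 33.3% called was near the 28.8% of all genes tested. RBBP4, a histone-binding subunit shared with the NuRD complex, fell to 626.5 and 582.3 CPM in sh60, against 761.7 and 766.7 CPM in LacZ (log2 fold change -0.34, edgeR adjusted p = 0.00285). Its paralog RBBP7 measured 186.8 and 186.5 CPM in sh60, against 168.2 and 187.6 CPM in LacZ, and did not pass (0.07, adjusted p = 0.582). LCOR, a transcriptional corepressor gene, rose to 33.6 and 27.1 CPM in sh60, against 24.1 and 22.7 CPM in LacZ (0.37, adjusted p = 0.0227). Both calls were lost without LacZ replicate 1 or 3, and that of LCOR without sh60 replicate 1. C10orf12, the row that holds the PRC2-binding part of the accessory protein made from the LCOR locus, measured 15.6 and 12.04 CPM in sh60, against 12.3 and 10.7 CPM in LacZ, which overlapped, and did not pass (0.26, adjusted p = 0.195). Partners lower numbered 2 without sh60 replicate 1 and 2 after the GC and length correction, and partners higher numbered 2 without sh60 replicate 2. EZHIP, an inhibitor of PRC2 listed as CXorf67, was under the filter, with 0 and 0.066 CPM in sh60, against 0.14 and 0.0998 CPM in LacZ.

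PRC1 is the complex that ubiquitinates histone H2A and binds the mark that PRC2 makes. Of its 28 tested genes, 7 were lower, 4 higher and 17 not passing (median 0.079). That is 25% lower and 14.3% higher, against 13.0% lower and 15.8% higher among all genes tested. RYBP, a subunit of variant PRC1, fell to 194.6 and 180.2 CPM in sh60, against 245.5 and 250.2 CPM in LacZ (log2 fold change -0.40, edgeR adjusted p = 0.00103). PCGF2, a RING finger partner in canonical PRC1, fell to 57.2 and 68.8 CPM in sh60, against 80.0 and 90.1 CPM in LacZ (-0.43, adjusted p = 0.00406). SCMH1 also fell (-0.43), and PHC3, a polyhomeotic subunit, rose (0.50, adjusted p = 0.00351). RYBP and PCGF2 were not called without LacZ replicate 3, nor SCMH1 without LacZ replicate 1. PRC1 counts were 3 lower and 2 higher without LacZ replicate 1, 2 lower and 1 higher without LacZ replicate 3, and 9 lower and 7 higher after correction for GC and length trends.

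A further list of 10 genes held enzymes that oppose Polycomb, the H3K27 demethylases and the H2A deubiquitinase BAP1, with partners that are not enzymes. Of the 10 genes 1 fell, 1 rose and 8 did not pass (median 0.0011), against 13.0% lower and 15.8% higher among all genes tested. None of the enzymes was called. The H3K27 demethylase genes KDM6A and KDM6B measured log2 fold changes of 0.0044 and -0.06 (edgeR adjusted p = 0.979 and 0.715). BAP1 measured -0.054 (edgeR adjusted p = 0.694). MBD6, a partner of the deubiquitinase BAP1, fell (-0.40, adjusted p = 0.00440), though not without LacZ replicate 3, and ASXL3 rose (1.69, adjusted p = 0.000429) to 2.17 and 1.83 CPM in sh60, against 0.784 and 0.399 CPM in LacZ. Most of the 16 genes listed as Trithorax group encode H3K4 methyltransferases or their partners, though ASH1L and KANSL1 do not. Of the 16 genes 2 fell, 1 rose and 13 did not pass (median -0.10), which is 12.5% lower and 6.25% higher. WDR5 (-0.40) and SETD1B (-0.40) fell and KMT2A (0.39) rose, though KMT2A did not pass when LacZ replicate 3 was left out (0.35, adjusted p = 0.133). The Trithorax falls numbered 0 without either LacZ library, 5 without sh60 replicate 1, 6 without sh60 replicate 2, 4 by upper-quartile scaling, 5 after a length correction and 10 after the GC and length correction.

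The E2F family and its pocket protein partners time gene expression in the cell cycle, and the E2F motif is in the EZH2 window shown above. The list also held LIN9, LIN37, LIN52, LIN54 and MYBL2, which are neither E2F nor pocket protein genes. Of 18 tested genes of this list, 6 were lower, 3 higher and 9 not passing (median -0.14). MYBL2 and LIN54 were among the 6 lower. That is 33.3% lower and 16.7% higher, against 13.0% lower and 15.8% higher among all genes tested. A link between this list and the EZH2 fall was not tested. MYBL2 fell to 226.2 and 248.2 CPM in sh60, against 363.8 and 365.1 CPM in LacZ (log2 fold change -0.62, edgeR adjusted p = 1.58e-05). E2F8 (-0.80) and E2F2 (-0.65) fell. E2F7 rose to 114.2 and 98.0 CPM in sh60, against 71.0 and 72.2 CPM in LacZ (0.57, adjusted p = 0.000192). Falls numbered 3 without LacZ replicate 1 or without LacZ replicate 3, and 11 after the GC and length correction; 1 rose without LacZ replicate 3.

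Textbook genes that PRC2 covers in pluripotent cells were called in both directions. Of 52 such targets 44 were tested, with 17 lower, 5 higher and 22 not passing (median log2 fold change -0.27). That is 38.6% lower and, with PAX6 included, 11.4% higher, against 13.0% lower and 15.8% higher among all genes tested. Those with the smallest p were brachyury (listed as T, -1.95), EOMES (-1.50), MSX1 (-1.14) and CDX2 (-1.82), all lower. Brachyury, a mesoderm factor, fell to 28.1 and 26.3 CPM in sh60, against 95.4 and 114.2 CPM in LacZ. EOMES measured 153.0 and 142.9 CPM in sh60, against 401.5 and 436.6 CPM in LacZ. MSX1 measured 77.2 and 78.3 CPM in sh60, against 175.0 and 167.2 CPM in LacZ. These genes were thus expressed in the LacZ libraries, and whether PRC2 covers them in these cells was not measured. The 5 that rose, named after their values were seen, were TBX5 (1.36), CDKN2B (1.17), CDKN2A (0.97), PAX6 (1.83) and HAND1 (0.41). HAND1, PAX6 and CDKN2A lost the call when LacZ replicate 3 or sh60 replicate 2 was left out, and PAX6 also without LacZ replicate 1. HAND1 was also not called by DESeq2, by edgeR robust or by edgeR with DESeq2 size factors. DESeq2 gave no adjusted p for PAX6. PAX6, a neural and eye factor, measured 0.411 and 0.486 CPM in sh60, against 0.119 and 0.133 CPM in LacZ. With 14 and 22 counts in sh60, against 5 and 4 counts in LacZ, it passed the filter on low counts only through the sh60 libraries, so its call supports no count of genes higher, which is 4 without it. Without LacZ replicate 3, 13 fell and 2 rose; 2 rose without sh60 replicate 2 and 3 by DESeq2. This list overlaps with lineage genes already known to differ in these libraries and is no independent evidence of a direction. The deposited tables hold RNA counts, and H3K27me3 was not measured in them.

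**Figure D5:**
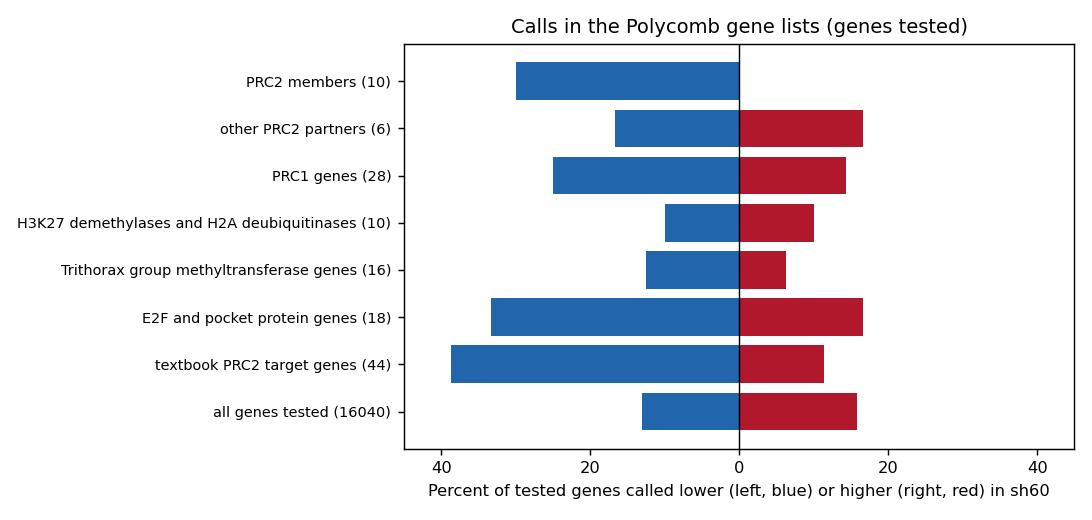
Percent of the tested genes of each list called lower (left, blue) or higher (right, red) in sh60 by edgeR at an adjusted p of 0.05, with the number tested in brackets. PRC2 members had 30.0% lower and 0% higher, and all genes tested had 13.0% lower and 15.8% higher.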

How the data were processed

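Counts per gene were deposited by the authors, 1 table per library, unnormalized. The submitters' processing notes name STAR 2.7.6a and hg19 (GRCh37). Per the file headers, featureCounts (Subread 2.0.0) counted exonic reads on the reverse strand (-s 2). The command names no option for reads that map to several places, so under the tool's defaults these were left out. Exon lengths (bases, unit other) are as deposited; for PHF1 the chromosome 6 copy alone was used. Members overlapped no exon of another gene.

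edgeR 4.0.16 (R 4.3.3) was run on all 4 libraries, with filterByExpr (16040 genes kept), TMM scaling, group as the only term, the quasi-likelihood test and Benjamini-Hochberg adjustment over all genes tested, at 0.05. The script was tested on simulated data. Replicates differed by more than sampling noise: the chi-square statistic divided by its degrees of freedom was 15.8 in sh60 and 5.89 in LacZ. Intervals are at 95%.

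Members and lists were chosen with earlier results of these data known. All members were named; of other lists, up to 4 genes past the threshold with the smallest p (in lists of 10 or fewer, any). Genes like EZH2 were ranked by root mean square difference. Motif searches were chosen after the data were seen. Alternatives were 13 planned settings (DESeq2 1.42.0, limma 3.58.1 voom and others) and 1 added after seeing the data, the removal of GC and length trends, with GC content matched for 97.2% of tested genes.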

Additional observations from a re-analysis of the deposited data

How the results depend on the processing

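No paired analysis was possible because the groups share only 1 replicate number. Genes higher and lower in sh60 numbered 2540 and 2084; with each library left out in turn they ran from 1331 to 2789 and from 956 to 2697, the lowest without LacZ replicate 3, and lower genes numbered 1166 without LacZ replicate 1. With GC and length trends removed there were 2964 higher and 3741 lower. PRC2 members lower in sh60 ran from 1 to 5, and members higher from 0 to 1, with a library left out. Without LacZ replicate 1 or 3 only C17orf96 was called, without sh60 replicate 1 MTF2 and AEBP2 were added to the 3, and without sh60 replicate 2 PHF19 was added as lower and SUZ12 as higher. By library totals 2 members were lower. With each library left out in turn the log2 fold change ran from -0.033 to 0.28 for SUZ12 (below 0 without sh60 replicate 1), from -0.17 to 0.067 for MTF2 and from -0.019 to 0.085 for PHF1 (direction turned without sh60 replicate 2 for both), and from -0.22 to 0.14 for AEBP2 (above 0 without sh60 replicate 2 and, at 0.0071, without LacZ replicate 3). Fits without a library assume that the lone sample of a group varies like the others. Of 154 fold changes of the members and BEND3 under the alternatives, 139 kept both direction and side of the threshold. The cause of each shift was not tested beyond fewer samples.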
